A study of Mus musculus with 8 samples.

Results

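The 215 microRNA genes described here are those with measurable signal in mouse liver: genes of biotype miRNA with a mean of at least 1 FPKM (read fragments divided by gene length and by library depth) over all 8 libraries. They are 215 of the 1637 microRNA genes in a table of 35638 genes, after Mir5114 and Mir675 were left out of the 217 that reach this mean. RNA came from frozen livers taken at postnatal day 90, and the strain is a mix of C57/B6 and 129. The 4 WT libraries are Arid1a Fl/Fl, with both alleles floxed and no Cre. The 4 KO libraries are Arid1a Fl/Fl; Alb-cre, the same alleles with Cre driven by the albumin promoter, so that hepatocytes lose Arid1a, a subunit of the SWI/SNF chromatin remodeller. The comparison asks how the RNA of the liver differs once hepatocytes lose Arid1a. No label says whether the samples of a group are different mice, so p-values cover the spread between these samples only, which may be technical.

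Members were chosen by their mean FPKM over the 8 libraries, so their overall level is a description and no finding. Of the other microRNA genes of the table, 751 were at 0 in every library and 669 had a mean above 0 and under 1 FPKM. Just outside the rule lay Gm23394 at 0.973, Mir3060 at 0.977 and Gm25241 at 0.987 FPKM, and just inside it Gm44350 and Mir7227, each at 1.02 FPKM. In WT 24 of the members had a mean under 1 FPKM, and in KO 18 did, so these passed through the group where they were higher. Their counts by direction are therefore no support for a difference.

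A microRNA is cut from a hairpin in a primary transcript, first in the nucleus by Drosha with Dgcr8 and then in the cytoplasm by Dicer. The mature strand is loaded into an Argonaute protein and pairs through its seed, bases 2 to 8, with sites in messenger RNAs, which are repressed. Many hairpins lie in introns or exons of longer host genes and are made from the host's transcript. In liver, miR-122 is the abundant microRNA of hepatocytes, and miR-126 marks endothelial cells. The values here are fragments over the annotated hairpin gene in libraries of total RNA. A read of the host transcript across the same bases counts as well, so they do not measure the mature strand.

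Of the members 106 matched an entry of the RefSeq microRNA table (GRCm38.p6) by symbol, and 95 overlapped a RefSeq hairpin on the same strand. Mature strands are shown for members of well-known families and for members discussed below because of their values or their host, with the seed in capitals; each printed strand has a seed of its own.
miR-21a-5p: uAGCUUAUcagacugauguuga
miR-22-3p: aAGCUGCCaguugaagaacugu
miR-101b-3p: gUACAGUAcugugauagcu
miR-126a-3p: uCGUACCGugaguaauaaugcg
miR-27b-3p: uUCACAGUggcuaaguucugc
miR-7a-5p: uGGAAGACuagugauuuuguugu
miR-1306-3p: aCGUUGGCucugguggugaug
miR-7227-3p: uCUGAAAAgggucaucggcaga
miR-7011-3p: uCUGCUUCccuccuccucuag
miR-1968-5p: uGCAGCUGuuaaggaugguggacu
miR-6418-5p: uCAGGGGAagggaagagaugc

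Most of the signal of the members came from short genes whose sequence occurs at many places. The member with the highest mean, Gm23935 (57 nt), shares its sequence base for base with Gm24270 and Gm24245, while Gm24187 and Gm25911 differ from it at few bases; GENCODE M21 sequences (GRCm38) are shown because these 5 genes cannot be counted apart with certainty. Capitals mark bases that differ from Gm23935, and Gm25911 also lacks 1 base.
Gm23935, chr16:11144125-11144181, plus strand: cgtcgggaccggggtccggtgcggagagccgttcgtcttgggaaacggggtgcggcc
Gm24187, chr13:9834469-9834525, minus strand: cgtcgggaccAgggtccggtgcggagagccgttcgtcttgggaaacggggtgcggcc
Gm25911, chr1:167340369-167340424, minus strand: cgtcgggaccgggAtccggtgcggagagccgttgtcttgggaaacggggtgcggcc
AL626808.1 (60 nt) has near-identical copies, at 95% identity over 90% of the length, in 70 other genes, of which 53 are named as 5S ribosomal RNA genes.
AL626808.1, chr4:149817764-149817823, plus strand: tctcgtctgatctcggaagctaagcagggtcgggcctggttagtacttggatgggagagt

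The members that passed the test of KO against WT lie opposite protein-coding exons, and their sequences are shown since they carry the comparison. Gm19658 (138 nt) is antisense to the coding sequence of the histone gene Hist1h2ao, and the same 138 nt occur unchanged in Gm44367, Gm44359, Gm44486, Gm44466 and Gm44350 and within the 144 nt of Gm44390. Gm44454 differs at the base in capitals. Gm44397 (113 nt) is antisense to the coding sequence of Tnfaip8l1.
Gm19658, chr13:21810712-21810849, minus strand: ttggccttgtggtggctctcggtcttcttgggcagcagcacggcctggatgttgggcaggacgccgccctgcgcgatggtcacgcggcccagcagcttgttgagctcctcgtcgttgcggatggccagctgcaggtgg
Gm44454, chr13:21753445-21753582, plus strand: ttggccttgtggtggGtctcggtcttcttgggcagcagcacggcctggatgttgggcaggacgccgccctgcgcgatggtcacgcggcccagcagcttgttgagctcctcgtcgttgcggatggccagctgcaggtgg
Gm44397, chr17:56172013-56172125, minus strand: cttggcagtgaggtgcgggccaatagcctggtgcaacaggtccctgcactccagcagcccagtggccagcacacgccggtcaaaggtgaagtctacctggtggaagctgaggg

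The steps between low FPKM values put the depth at an estimated 12400000 to 15200000 reads per library. At the median member length 1 read was then worth 0.783 to 0.960 FPKM. The depth was fitted on transcripts of at least 400 nt, longer than any member. Of 1573 member values above 0, 159 came out under 0.9 reads, so the read equivalents given here are approximate. The mean of a member was worth under 2 reads per library in 60 of the 215, under 5 in 115 and at least 10 in 65, and 140 members were above 0 in all 8 libraries. Hepatocyte markers (Alb, Ttr, Apoa1, Cps1, Tat) summed to 27230 to 43520 FPKM per library. Arid1a itself was at 5.16, 8.38, 3.998 and 4.11 FPKM across the 4 WT libraries and at 2.70, 2.86, 3.46 and 2.59 FPKM across the 4 KO libraries, so every KO library was below every WT library, with a limma adjusted p of 0.316. Summed markers of macrophages (6 genes, of which 5 had every KO library above every WT library) ran from 3.62 to 6.01 FPKM in WT and from 8.26 to 62.4 FPKM in KO. Endothelial markers ran from 1.51 to 3.54 and from 4.15 to 12.6 FPKM, and stellate markers from 1.89 to 5.91 and from 8.17 to 20.9 FPKM. Cholangiocyte markers ran from 0.134 to 0.462 FPKM in WT and from 0.0157 to 0.196 FPKM in KO. Among these, Sox9 had every KO library below every WT library, while Krt19, Krt7 and Epcam were at 0 in WT and at most 0.109 FPKM in KO. Lymphocyte markers ran from 0.0161 to 0.290 FPKM in WT and from 0.314 to 1.07 FPKM in KO; Cd3e, Cd79a and Cd2 were at 0 in all WT libraries and under 0.1 FPKM in KO, and Ptprc, which other white blood cells express too, was at 0.131 ± 0.137 against 0.681 ± 0.468 FPKM (SD, n = 4 each).

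Of the 215 members 4 passed the test, 3 higher in KO and 1 lower, by limma on log2(FPKM + 1) with Benjamini-Hochberg adjustment over 11266 genes and a threshold of 0.05. Over all genes tested 0.763% passed, 0.408% higher and 0.355% lower, and of the members 1.86% did. The 3 that were higher hold the same 138 nt. The median change of the members was 0.02 on the log2 scale, against -0.03 over all genes tested, and 109 of 215 were positive. An unadjusted p under 0.05 was reached by 32 members (14.9%), 25 higher and 7 lower, against 9.81% of all genes tested. In 15 members (6.98%) every KO library was above every WT library, against 3.05% of all genes tested, and 8 of those 15 are the copies of Gm19658. In 2 members every KO library was below every WT library (0.93%, against 3.18%). Without the members opposite a histone H2A exon, 7 of 199 (3.52%) had every KO library above every WT library, near the share over all genes. These counts include members that reached the mean of 1 FPKM only through the group where they were high: Gm44359 and Gm44397 among the 4 that passed, and 7 of the 15 with every KO library above every WT library (Gm44350, Gm44359, Gm44454, Gm44466, Mir1968, Mir5107 and Mir7011). Such members had to differ between groups, so the shares are a description and do not support a difference of the members from other genes.

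**Figure D1:**
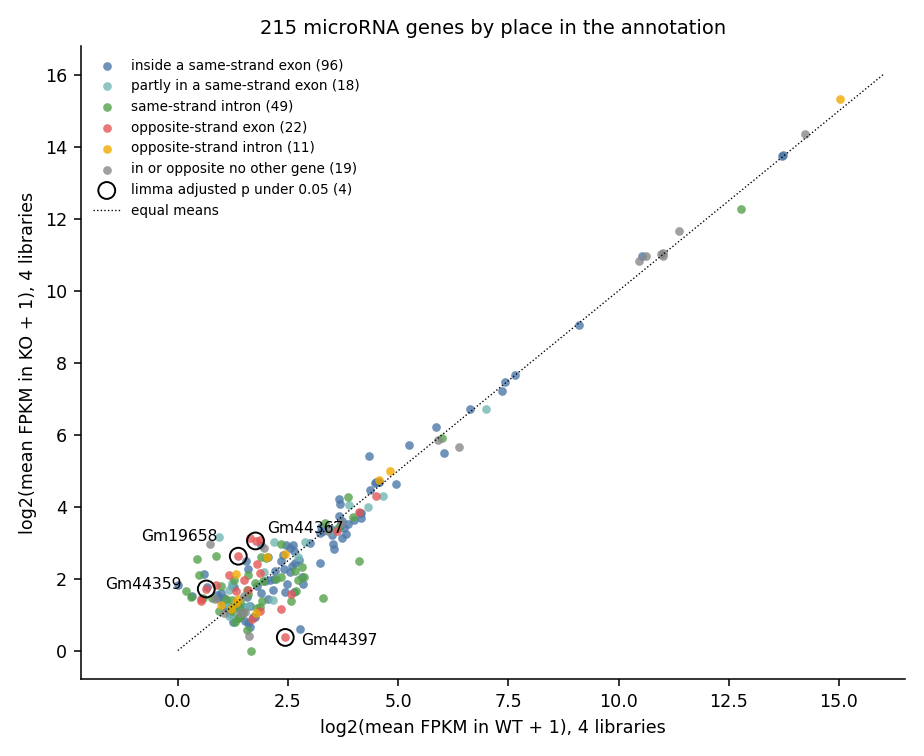
Each point is a microRNA gene at its mean FPKM in the 4 WT libraries (x axis) and the 4 KO libraries (y axis), both as log2(mean FPKM + 1), coloured by its place in the annotation. The 4 ringed genes passed the test, and the 12 genes of at least 1000 FPKM lie near the dotted line of equal means.

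Histone H2A is a core protein of the nucleosome, and its genes lie in clusters of near-identical copies that are mostly expressed in dividing cells. Of the 20 microRNA genes of the table opposite an H2A exon, 16 were members, and 14 of these lie wholly opposite coding sequence. The 8 that hold the 138 nt of Gm19658 with at most 1 difference were all higher in KO, with every KO library above every WT library and changes of 0.85 to 1.28 (median 1.0). The other 8, whose sequences differ more or cover another stretch of H2A, had changes of -0.33 to 0.49 and adjusted p of 0.522 to 0.956, and their groups overlapped. Genes with the same sequence can share reads, so the first 8 are not independent measurements. Of these, Gm44350, Gm44359, Gm44454 and Gm44466 had a WT mean under 1 FPKM and became members only through KO. The 4 genes opposite H2A that were not members, Gm44313, Gm44357, Gm44394 and Gm44484, are near-identical copies of Gm19658 too. Their means were at most 0.729 FPKM, and their group values are not given here. The shared direction therefore describes only copies that passed the rule.

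Gm19658 was at 1.14, 1.82, 1.06 and 2.33 FPKM across the 4 WT libraries and at 6.46, 5.04, 4.02 and 5.09 FPKM across the 4 KO libraries. These values are worth 1.98 to 3.98 reads in WT and 7.60 to 12.3 reads in KO. All KO libraries were high, KO 1 highest, and the change was 1.27 ± 0.22 (SE, log2, limma adjusted p = 0.0344). Gm44367, opposite Hist1h2ai, was at 1.61, 2.80, 1.86 and 3.30 FPKM in WT and at 10.3, 6.96, 5.59 and 6.17 FPKM in KO, a change of 1.28 ± 0.24 (adjusted p = 0.0486). Gm44359, opposite Hist1h2ad, was at 0.578, 0.566, 0.269 and 0.843 FPKM in WT and at 3.10, 2.13, 1.84 and 2.02 FPKM in KO, a change of 1.06 ± 0.19 (adjusted p = 0.0452). KO 1 was the highest library in all of these, and WT 4 the highest of the WT libraries.

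The 3 calls were close to the threshold. Without WT 4 the adjusted p was 0.027 for Gm19658, 0.0483 for Gm44367 and 0.051 for Gm44359, which then missed the threshold. Leaving out any other library ended the calls of all 3. For Gm19658 the limma adjusted p was 0.111 without WT 1, 0.0755 without WT 2, 0.105 without WT 3, 0.0916 without KO 1, 0.0569 without KO 2, 0.0655 without KO 3 and 0.0983 without KO 4. For Gm44367 it ran from 0.0825 without KO 2 to 0.148 without WT 3, and for Gm44359 from 0.0666 without KO 2 to 0.127 without WT 3. Each change kept its direction in these fits. With a pseudocount of 0.1 or of 5 FPKM Gm19658 alone of the 3 passed (limma adjusted p = 0.0377 and 0.0437), and with no filter on low values none of the 3 did (0.0827 for Gm19658, 0.114 for Gm44367 and 0.1 for Gm44359).

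The 5 copies that did not pass had adjusted p from 0.0664 for Gm44390 (1.27 ± 0.25) to 0.114 for Gm44454 (0.89 ± 0.21), with 0.0817 for Gm44486 (0.93) and 0.09 for both Gm44466 (0.94) and Gm44350 (0.85). Gm44390 had the highest mean of the 8, 2.62 ± 1.21 FPKM in WT against 7.47 ± 1.41 FPKM in KO (SD, n = 4 each), and Gm44350 the lowest, 0.436 ± 0.174 and 1.598 ± 0.433 FPKM. The levels of genes with the same sequence thus differed several-fold, while their direction was shared.

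**Figure D2:**
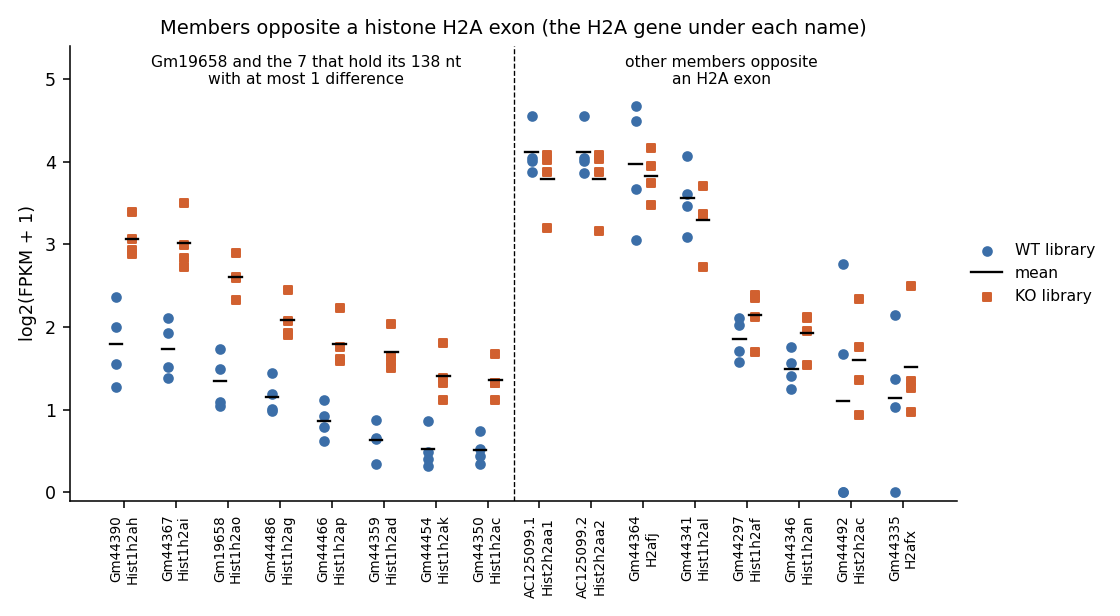
The y axis is log2(FPKM + 1) in each WT (circles) and KO (squares) library, with bars at the mean, for the 16 members opposite an H2A exon; the H2A gene stands under each name. Left of the dashed line, the 8 near-identical members have every KO library above every WT library, and right of it the groups overlap.

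On the other strand, 0 of the H2A genes themselves passed the test. The 8 H2A genes opposite the near-identical members had changes of 0.52 to 1.5 and limma adjusted p of 0.09 to 0.504, and 7 of them had every KO library above every WT library. Hist1h2ao was at 5.98, 4.91, 8.55 and 6.85 FPKM in WT and at 18.9, 9.73, 12.2 and 11.8 FPKM in KO, a change of 0.88 ± 0.24 (adjusted p = 0.164). Hist1h2ai was at 5.06 ± 1.45 FPKM in WT against 12.3 ± 4.72 FPKM in KO (SD, n = 4 each), a change of 1.12 ± 0.28 (adjusted p = 0.136). KO 1 was the highest library for both. Of the 8 H2A genes opposite the other members 5 had a positive change, with a range of -0.75 to 0.76 and adjusted p of 0.279 to 0.999, and 2 of them, Hist1h2af (0.68) and Hist1h2an (0.76), had every KO library above every WT library. The lowest change was that of Hist1h2al, with means of 31.4 ± 10.96 FPKM in WT against 18.3 ± 6.71 FPKM in KO (SD, n = 4 each) and an adjusted p of 0.556 by limma. The use of strand in the counting is not given, so reads of an H2A gene and of the member opposite it cannot be told apart.

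The other 8 members opposite H2A exons did not differ beyond their spread. Of these 4 had means of 10.11 to 14.98 FPKM, above all 8 near-identical members, and 4 had means of 1.83 to 3.08 FPKM, within their range. AC125099.1 and AC125099.2 have the same sequence, with 7 mismatches to Gm19658 over 138 nt, and lie opposite Hist2h2aa1 and Hist2h2aa2. AC125099.1 was at 16.7 ± 3.94 FPKM in WT against 13.3 ± 3.52 FPKM in KO (SD, n = 4 each), a change of -0.33 ± 0.24 with an adjusted p of 0.776. Hist2h2aa1 was at 16.9 ± 3.35 and 16.7 ± 2.51 FPKM. Gm44346, opposite Hist1h2an, shares 99 of its 141 nt with Gm19658 without a mismatch. Its mean was 1.85 ± 0.431 FPKM in WT against 2.87 ± 0.681 FPKM in KO, with a change of 0.44 ± 0.20 and an adjusted p of 0.522. Its groups overlapped, while Hist1h2an was at 1.24, 1.15, 0.636 and 1.15 FPKM in WT and at 4.28, 2.02, 1.57 and 2.36 FPKM in KO, a change of 0.76 ± 0.24 (limma adjusted p = 0.279).

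Gm44397 was the member that fell. It was at 2.72, 3.23, 3.27 and 8.45 FPKM across the 4 WT libraries, at 1.15 FPKM in KO 2 and at 0 in KO 1, KO 3 and KO 4. The WT values are worth 3.87 to 11.9 reads and the KO 2 value 1.97 reads. The change was -2.05 ± 0.36 (SE, log2, limma adjusted p = 0.0384), on a scale where the pseudocount of 1 FPKM bounds the change of a gene at 0. Its adjusted p was 0.0457 without WT 4 and 0.0145 without KO 2, and it missed the threshold without WT 1 (0.0676), WT 2 (0.082), WT 3 (0.0904), KO 1 (0.0993), KO 3 (0.117) or KO 4 (0.119). The call was also lost with a pseudocount of 0.1 FPKM (0.0599), a pseudocount of 5 FPKM (0.0958) and no filter on low values (0.127).

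The gene on the other strand, Tnfaip8l1, a member of the TNFAIP8 family, fell too and was the only 1 of the tested genes at the place of a member that passed. It was at 2.79, 3.49, 4.41 and 6.26 FPKM in WT and at 0.580, 0.427, 0.278 and 0.139 FPKM in KO. The groups were far apart, with a change of -1.92 ± 0.23 and an adjusted p of 0.00649, which stayed between 0.0109 and 0.0308 when each library was left out. With the replicate number as a block the limma adjusted p was 0.0756, which missed the threshold. All 113 nt of Gm44397 are opposite coding sequence of Tnfaip8l1, so with strand not given, which of the genes a read came from cannot be told apart.

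A further 7 members had every KO library above every WT library without passing the test. Mir5107 overlaps an exon of Cd74 on the same strand in part; Cd74 is the invariant chain of MHC class II in antigen-presenting cells. Mir5107 was at 1.57, 1.05, 0.567 and 0.424 FPKM in WT and at 4.73, 2.19, 11.5 and 12.9 FPKM in KO, a change of 2.02 ± 0.45 (limma adjusted p = 0.0981). Cd74 was at 1.70, 2.98, 2.83 and 3.66 FPKM in WT and at 19.5, 5.79, 35.0 and 35.8 FPKM in KO, a change of 2.48 ± 0.49 (adjusted p = 0.0655). In both genes KO 2 was the lowest of the KO libraries, and without it Mir5107 passed (adjusted p = 0.0172). The macrophage marker Adgre1 ran from 0.0961 to 0.307 FPKM in WT and from 0.722 to 3.06 FPKM in KO, and KO 2 was lowest of the KO libraries there as well. The part of those cells in the Mir5107 values was not tested, and in bulk tissue a change in the number of cells of a type and a change in RNA per cell cannot be told apart.

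Mir7011 and Mir1968 also had every KO library above every WT library without passing the test, and the groups of the genes around them overlapped; the difference between member and gene was not tested. Mir7011, within an exon of Sema4a, a semaphorin, was at 0.9002, 0.919, 0 and 0.248 FPKM in WT and at 3.96, 1.36, 4.85 and 3.44 FPKM in KO, a change of 1.52 ± 0.33 (limma adjusted p = 0.0892, and 0.0236 without KO 2). Sema4a was at 14.3 ± 3.92 FPKM in WT against 17.2 ± 1.99 FPKM in KO, a change of 0.29 (SD, n = 4 each; adjusted p = 0.792). Mir1968, in an intron of Grtp1, was at 0, 0.740, 0 and 0.866 FPKM in WT and at 1.45, 2.94, 6.51 and 2.14 FPKM in KO, a change of 1.53 ± 0.37 (adjusted p = 0.123). Grtp1 changed by -0.38 ± 0.23 (adjusted p = 0.686). The WT values of both members are worth under or about 1 read.

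Mir6418 reaches from an intron into an exon of Gnb2, which encodes a beta subunit of G proteins. It was at 3.56 ± 1.37 FPKM in WT against 7.04 ± 1.55 FPKM in KO, a change of 0.85 ± 0.24 (SD, n = 4 each; limma adjusted p = 0.212), and Gnb2 was at 16.4 ± 3.93 and 15.9 ± 1.54 FPKM (adjusted p = 0.99). Gm27646 lies wholly in coding sequence of Pink1, a kinase that marks damaged mitochondria for removal. It was at 36.7 ± 8.65 FPKM in WT against 51.5 ± 1.63 FPKM in KO, a change of 0.51 ± 0.20 (adjusted p = 0.423). Pink1 itself was at 31.2 ± 5.57 and 36.9 ± 3.80 FPKM, with overlapping groups.

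**Figure D3:**
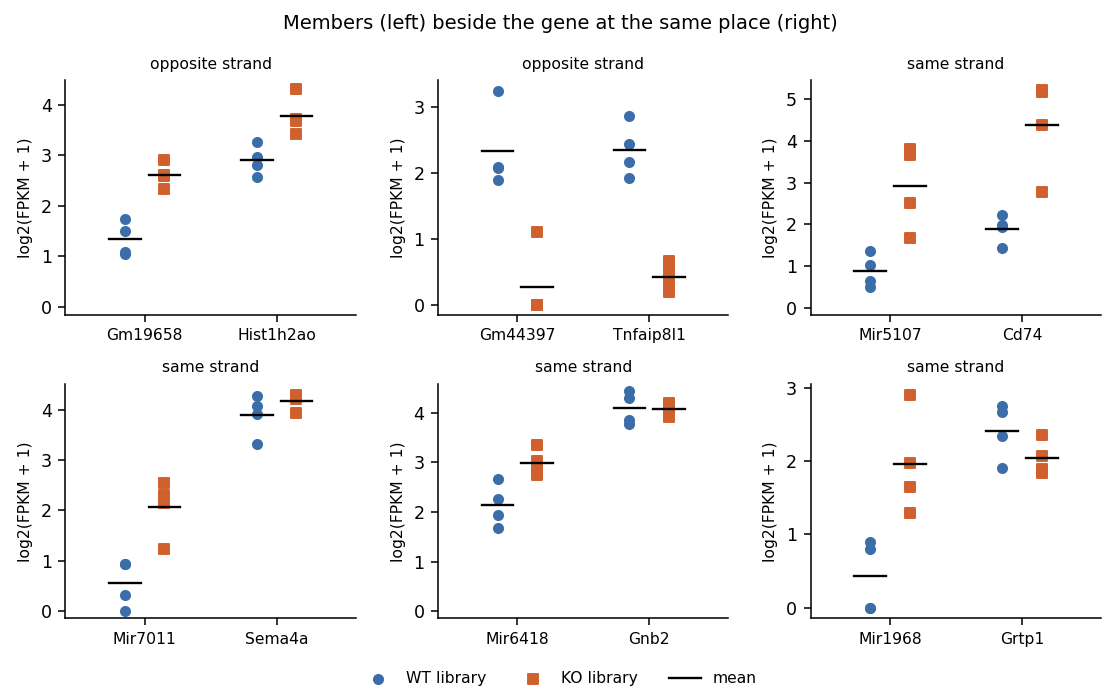
Each panel shows a member (left) and the gene at its place (right) as log2(FPKM + 1) in WT (circles) and KO (squares) libraries, with bars at the mean; y axes differ between panels. In the Gm44397, Gm19658 and Mir5107 panels both genes separate in the same direction, while Sema4a, Gnb2 and Grtp1 overlap between groups beside members that do not.

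A family of members copies the messenger of Ftl1, the ferritin light chain that stores iron. Gm22133 lies in an exon of Ftl1 and was at 1509, 1210, 1282 and 1939 FPKM in WT and at 1956, 1843, 1812 and 2298 FPKM in KO, a change of 0.43 ± 0.20 (limma adjusted p = 0.519). Ftl1 was at 767 ± 151 FPKM in WT against 1064 ± 151 FPKM in KO (SD, n = 4 each), a change of 0.48 ± 0.20 (adjusted p = 0.432). Gm22774, a near-identical copy of Gm22133 opposite an intron of Tulp4, was at 3.32, 2.29, 3.07 and 3.47 FPKM in WT and at 5.02, 4.78, 5.02 and 5.403 FPKM in KO. Its groups did not overlap, and its change was 0.59 ± 0.16 (adjusted p = 0.185). Tulp4 changed by -0.27 ± 0.39 (adjusted p = 0.91). Inside Tulp4 on the opposite strand lies a processed pseudogene, Gm15590, at 111 ± 27.9 FPKM in WT against 183 ± 72.3 FPKM in KO (SD, n = 4 each). Its change was 0.66 ± 0.31 (adjusted p = 0.534) with overlapping groups. Its part in the Gm22774 values was not tested. The other copies, chosen after their values were seen, had overlapping groups. Mir692-3, in an exon of Gm10116, reached 219.5 FPKM in the library WT 4 and 276.3 FPKM in KO 4, against 2.41 to 5.41 FPKM in the other 6 libraries (change 0.66 ± 1.6, limma adjusted p = 0.956). Gm10116 was at 187, 137, 150.2 and 188 FPKM in WT and at 224, 221, 255 and 239.9 FPKM in KO, so the 2 libraries high for Mir692-3 did not stand apart there. Gm22751 was at 31.2 FPKM in WT 3 and between 0.803 and 2.83 FPKM in the other 7. Mir692-2 was at 3.01 ± 1.74 FPKM in WT against 4.94 ± 0.117 FPKM in KO, and Gm26445 at 1.08 ± 0.475 and 1.07 ± 0.192 FPKM (SD, n = 4 each).

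Of the members that copy Cyp2d sequence, a family of drug-metabolizing cytochromes P450, the 4 described here did not pass the test, and their changes differed in sign or size. Gm27463, with near-identical copies in Cyp2d12 and Cyp2d40, was at 90.9, 85.9, 85.1 and 66.5 FPKM in WT and at 46.0, 57.5, 56.4 and 37.2 FPKM in KO. It is the other member with every KO library below every WT library, with a change of -0.74 ± 0.19 (limma adjusted p = 0.16). Its copy Gm27618 was at 1.96, 0.738, 4.47 and 4.28 FPKM in WT and at 6.26, 5.92, 5.17 and 7.74 FPKM in KO, a change of 1.05 ± 0.35 (adjusted p = 0.315), with every KO library above every WT library. Gm27622, in an exon of Cyp2d9, was at 3.77, 4.34, 33.4 and 35.1 FPKM in WT and at 24.6, 33.4, 60.9 and 46.9 FPKM in KO, so WT 1 and WT 2 lay apart from the other libraries. Cyp2d9 was lowest in the same libraries, 15.6 and 14.9 FPKM in WT 1 and WT 2 against 26.0 to 47.9 FPKM in the others. Gm27331, in an exon of Cyp2d10, had means of 171 FPKM in WT and 176 FPKM in KO.

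The 12 members of at least 1000 FPKM held 14.17 to 22.32% of all FPKM of a library, and all 215 members 14.75 to 22.71%. Gm23935 was at 31770, 37520, 23900 and 39940 FPKM in WT and at 38840, 60210, 36980 and 29250 FPKM in KO, a change of 0.29 ± 0.27 (limma adjusted p = 0.837). WT 3 was the lowest library and KO 2 the highest, and the groups overlapped. Of its relatives, Gm24187 changed by 0.28, Gm25911 by 0.39 and Gm24245 by 0.38, while Gm24270 changed by -0.36 ± 0.39 (adjusted p = 0.871) although Gm24270 and Gm24245 have the sequence of Gm23935. Gm24270 was at 7024 ± 3371 FPKM in WT against 4972 ± 1002 FPKM in KO (SD, n = 4 each).

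AL626808.1, of 5S ribosomal sequence, was at 19330 ± 6747 FPKM in WT against 20890 ± 4481 FPKM in KO (SD, n = 4 each; change 0.16, limma adjusted p = 0.934). Mir6236 was at 2042 ± 244 FPKM in WT against 1984 ± 339 FPKM in KO, a change of -0.05 (limma adjusted p = 0.973). It has no near-identical copy among GENCODE M21 transcripts. Sequence outside those transcripts was not searched, so its reads may not come from this locus alone. For AL626808.1 and Mir6236 the sign of the change flipped under other scalings or with a library left out.

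Of 23 well-known microRNA genes of liver, vessel and blood cells that were listed, 18 were in the table by symbol and 5 were members: Mir122, Mir22, Mir21a, Mir101b and Mir126a. The other 13 had means of at most 0.390 FPKM, and 5 of them were at 0 throughout. Mir122 (chromosome 18, 65248861 to 65248926) was at 1.65, 0.286, 0.646 and 0 FPKM in WT and at 10.2, 0, 17.2 and 0 FPKM in KO. Its signal came from KO 1 and KO 3, worth 9.25 and 15.5 reads, and the other libraries were at or under 1.38 reads. The change was 1.29 ± 0.92 (limma adjusted p = 0.761), within the spread between libraries.

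Mir22, in an exon of Mir22hg and of Tlcd2, was at 2.88, 5.14, 1.57 and 11.3 FPKM in WT and at 2.32, 4.22, 1.46 and 0.290 FPKM in KO, a change of -0.94 ± 0.53 (limma adjusted p = 0.638). Tlcd2 was at 19.3 ± 8.43 FPKM in WT against 15.4 ± 4.57 FPKM in KO, and Mir22hg at 7.61 ± 2.14 and 9.89 ± 6.14 FPKM (SD, n = 4 each). WT 4 was the highest library for Mir22 and for Tlcd2. Mir21a, a widely expressed microRNA that lies in an annotated UTR exon of Vmp1, was at 5.25, 2.51, 3.72 and 3.05 FPKM in WT and at 2.69, 0, 3.74 and 7.94 FPKM in KO. Its means of 3.63 ± 1.19 and 3.59 ± 3.30 FPKM were close, with a change of -0.36 ± 0.56 (adjusted p = 0.922) that turned positive without KO 2, the library at 0.

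Mir101b, in an intron of Rcl1, was at 3.88, 9.08, 11.5 and 0.735 FPKM in WT and at 0, 9.60, 0.910 and 1.99 FPKM in KO, a change of -1.04 ± 0.78 (limma adjusted p = 0.778). High and low libraries occurred in both groups, while Rcl1 stayed between 18.9 and 36.8 FPKM. Mir126a, in its endothelial host Egfl7, was at 0, 2.31, 2.08 and 0.357 FPKM in WT and at 0.506, 0, 4.35 and 0 FPKM in KO (change -0.20 ± 0.58, adjusted p = 0.966). Egfl7 was at 0.736 ± 0.453 FPKM in WT against 2.13 ± 1.09 FPKM in KO (SD, n = 4 each), a change of 0.83 ± 0.28 (adjusted p = 0.329), beside the higher endothelial markers given above; their part in it was not tested.

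Mir27b and Mir23b, which form a cluster with roles in lipid and vessel biology, lie in 2010111I01Rik, and Mir7-1 lies in an intron of Hnrnpk. Mir27b was at 1.66 ± 1.36 FPKM in WT against 0.922 ± 1.06 FPKM in KO, Mir23b at 1.604 ± 1.85 and 0.890 ± 1.07 FPKM, and Mir7-1 at 2.76 ± 1.99 and 1.57 ± 1.18 FPKM (SD, n = 4 each). Their limma adjusted p were 0.873, 0.946 and 0.812, and the groups overlapped in each. These 3 members were chosen after their values were seen.

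**Figure D4:**
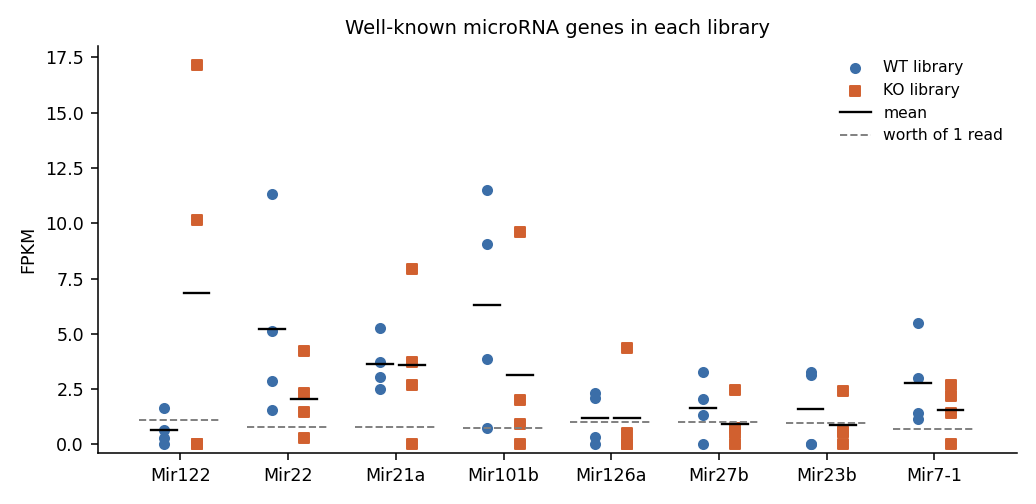
The y axis is FPKM in each WT (circles) and KO (squares) library for 8 well-known microRNA genes, with bars at the group mean and a dashed line at the FPKM that 1 read is worth at the gene's length and the median depth. Mir122 exceeds 10 FPKM in KO 1 and KO 3 only, and WT and KO overlap in every gene.

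By place, 96 members lie inside an exon of another gene on the same strand, 18 partly in such an exon, 49 in an intron, 22 opposite an exon, 11 opposite an intron and 19 are neither contained in another gene of the table on the same strand nor opposite one. Of the 96, 78 have a protein-coding host, with 10 wholly in coding sequence and 33 wholly in annotated UTR. Exonic members were nearer in level to their host than intronic members were. Their median ratio of member to host FPKM was 0.827 (quartiles 0.378 and 1.369), with 54 of 96 within 2-fold and a Spearman rho across members of 0.56. Intronic members had a median ratio of 0.234, with 9 of 47 within 2-fold and a rho of 0.14. Members opposite an exon had a median ratio of 0.785, with 14 of 22 within 2-fold and a rho of 0.28. These are descriptions across genes of the same libraries, and the points share depth and, in copies, sequence.

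**Figure D5:**
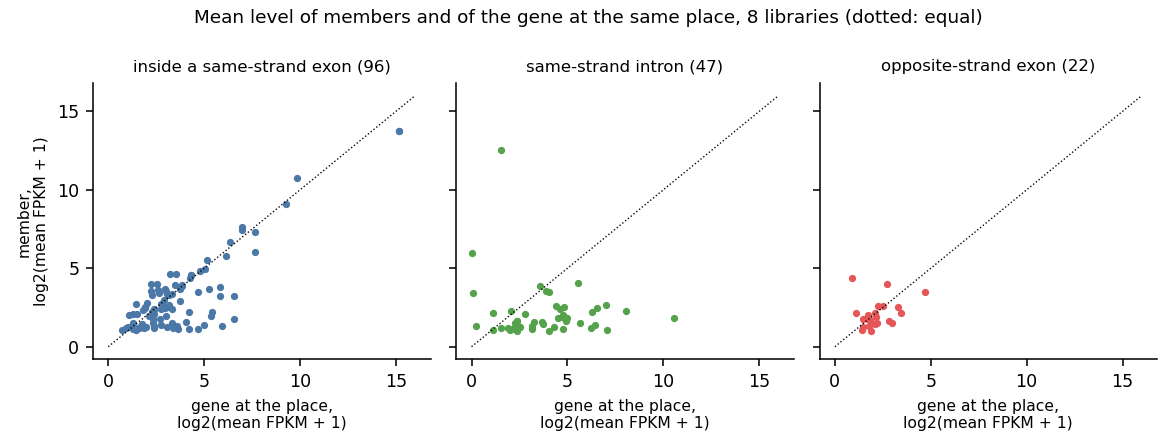
Each point is a member, with its mean FPKM over 8 libraries (y axis) against that of the gene at its place (x axis), both as log2(mean FPKM + 1). Exonic members scatter around the dotted line of equal levels, with 54 of 96 within 2-fold of the gene at their place. Most intronic members lie below the line.

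Calls among the hosts do not set them apart from other genes. Of the same-strand hosts that could be tested, 0 of 92 for members inside an exon, 0 of 18 for members partly in an exon and 0 of 44 for intronic members passed the test. Over all genes tested 0.763% passed, so few or no calls are the usual share for sets of this size. Of the 21 tested genes opposite an exonic member, 1 passed, Tnfaip8l1. The median size of change was 0.32 for exonic members beside 0.20 for their hosts, and 0.49 for intronic members beside 0.24 for theirs. By place the median change was -0.07 for exonic members, -0.08 for intronic members and 0.46 for members opposite an exon, a group that holds the H2A copies.

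Several hosts are themselves of interest in this liver, and those named next were chosen after their values were seen. Mir7227 lies in an intron of Arid1a and was at 0.944, 0, 0 and 0 FPKM in WT and at 0.973, 0, 6.004 and 0.226 FPKM in KO (change 0.78 ± 0.55, limma adjusted p = 0.756). Only its KO 3 value stands above about 1 read, while Arid1a was lower in every KO library. Mir6921 and Mir6922 lie in Srebf1, the regulator of lipogenesis, Mir7116 in Acly, which makes cytosolic acetyl-CoA, and Mir6993 in Fads1, a fatty acid desaturase. Mir6922 was at 10.7 ± 6.04 FPKM in WT against 6.08 ± 3.02 FPKM in KO, beside Srebf1 at 103 ± 38.8 and 83.2 ± 20.1 FPKM. Mir7116 was at 0.479 ± 0.449 and 1.77 ± 1.46 FPKM, beside Acly at 87.3 ± 33.8 and 174 ± 89.8 FPKM (SD, n = 4 each throughout). The adjusted p of these 4 members ran from 0.556 to 0.999.

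The largest changes among members with overlapping groups did not pass the test. Mir1948 (0.345 to 4.86 FPKM from WT to KO mean, change 1.83), Gm27551 (0.812 to 5.17, change 1.49) and Mir5133 (1.92 to 4.64, change 1.31) were higher in KO on average, with limma adjusted p of 0.218, 0.413 and 0.536. Their means over the 8 libraries are worth 3.06, 3.17 and 3.54 reads. Gm27622, described above, had a change of 1.59 (adjusted p = 0.491) and a mean worth 25.3 reads. Gm27325 was at 0 in all WT libraries and KO 1, and at 1.66 FPKM in KO 2, 5.08 FPKM in KO 3 and 3.39 FPKM in KO 4 (adjusted p = 0.249, and 0.0194 without KO 1). On the other side, Mir1938, in an intron of Ifrd1, went from 16.3 ± 9.78 FPKM in WT to 4.62 ± 4.52 FPKM in KO (SD, n = 4 each; change -1.91, adjusted p = 0.357). Its KO 3 and KO 4 values, 0.637 and 0.780 FPKM, were the lowest, and KO 1 and KO 2 overlapped WT, whose values are worth 8.80 to 36.9 reads. Ifrd1 went from 19.1 ± 5.42 to 11.3 ± 3.46 FPKM (change -0.71, adjusted p = 0.40).

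Mir1306, which lies wholly in coding sequence of Dgcr8, was at 0, 1.72, 7.59 and 14.1 FPKM in WT and at 0.221, 0.0703, 0 and 1.71 FPKM in KO. WT 3 and WT 4 were high, WT 1 was at 0, and the change was -1.66 ± 0.75 (limma adjusted p = 0.517). Its host Dgcr8 was at 2.20, 0.977, 1.39 and 2.87 FPKM in WT and at 1.03, 0.905, 0.992 and 1.18 FPKM in KO (change -0.45 ± 0.23, adjusted p = 0.579). Gm44311 (change -1.09, adjusted p = 0.616) and Gm23493 (change -1.18, adjusted p = 0.553) were at 0 in 3 and in 4 of the KO libraries.

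The machinery that makes and uses microRNAs did not pass the test at any of its 38 tested genes, of 41 listed. Over all genes tested 0.763% passed, so 0 of 38 is near that share. Of the 38 genes, 13 had a positive and 25 a negative change, with a median of -0.10, against -0.03 over all genes. Over all genes tested 45.5% were positive. Among 13 genes of nuclear processing 9 were negative. Drosha, the nuclease that frees the hairpin, was at 1.15, 1.30, 3.59 and 5.32 FPKM in WT and at 1.19, 1.10, 1.38 and 1.35 FPKM in KO (change -0.62 ± 0.34, limma adjusted p = 0.617). WT 3 and WT 4 were high and WT 1 and WT 2 lay with the KO libraries. The smallest p belonged to Zcchc6, a terminal uridylyltransferase that tails microRNA precursors, with means of 10.4 FPKM in WT and 7.58 FPKM in KO (change -0.40, adjusted p = 0.431). Its 4 KO libraries lay below its 4 WT libraries, as in Ddx17, a helicase of the Drosha complex. Such a separation was found in 3.18% of all genes tested.

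Of the 4 dicing genes 3 were positive. Adar, which edits double-stranded RNA, changed by 0.67 (limma adjusted p = 0.473) and Tarbp2, the partner of Dicer, by 0.56 (adjusted p = 0.52). Hsp90aa1, a chaperone that helps to load Argonaute, changed by -0.54 (adjusted p = 0.573). Both export genes, 7 of 11 loading and silencing genes and 6 of 8 tailing and decay genes were negative. Of 12 textbook targets of miR-122, 7 could be tested. Of these 6 were positive and 0 passed, with a median change of 0.14, against 45.5% positive and 0.763% passing over all genes tested. Ccng1, cyclin G1, had the smallest p and was at 4.35, 4.96, 7.16 and 8.36 FPKM in WT and at 8.998, 10.3, 7.43 and 11.4 FPKM in KO (change 0.57 ± 0.23, adjusted p = 0.426), so that KO was mostly high with an overlap of WT 4 and KO 3.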

How the data were processed

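Total RNA of 4 WT and 4 KO liver samples was sequenced after Trizol and miRNeasy isolation and Nugen library preparation, per the labels' protocols. The authors deposited 1 table of FPKM values per gene with symbols and biotypes. The submitters' processing notes list TopHat, edgeR and mm10 with no version or role. For the FPKM values, the program, annotation, use of strand and treatment of reads with several matches were not given in the sources used here. Whether the libraries kept fragments as short as a mature microRNA is not given. Members are 52 to 147 nt long, and the shorter the gene, the more FPKM 1 read is worth.

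Groups come from the labels. The 11266 genes with a mean of at least 1 FPKM were compared as log2(FPKM + 1), unscaled, with limma 3.58.1 in R 4.3.3 (intensity trend, two-sided, Benjamini-Hochberg, threshold 0.05). Fold changes are on that scale, which understates low genes. Exact tests were not added. Places, hosts (the same-strand gene around a member with the highest mean FPKM) and member sequences come from GENCODE M21 on GRCm38, the build mm10, and mature strands from RefSeq on GRCm38.p6. Copies are matches to GENCODE M21 transcripts of at least 95% identity over 90% of a member's length by BLAST 2.17.0. Depth was estimated from the steps of 12059 genes, where 56.36 to 60.47% of low values were whole reads to within 0.1 (20% by chance). The reads a value is worth are its FPKM times gene length and this depth. They are estimates and did not enter the test. On simulated data for this comparison of 11266 genes the fit recovered 37 of 100 genes with a true log2 change of 1 and 87 of 100 with a change of 2, with 4 false among 128 calls.

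The members and lists were chosen with earlier results of these data known. Members were named that passed the test, whose groups do not overlap, that have the 12 highest means or the 5 largest rises or falls among the rest, or that are well-known liver microRNAs; genes of microRNA processing were named by the smallest p. The results of some members that this takes are not reported here. Other genes were chosen after their values were seen. Alternatives were pseudocounts of 0.1 and 5 FPKM, no filter or a mean of 5 FPKM, 4 scalings, limma with array weights or with no trend, a block for the replicate number, and each library left out. A fit with neither WT 4 nor KO 2 was added after seeing the data.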

Additional observations from a re-analysis of the deposited data

Results flagged for a closer look

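In groups of 4, a library was looked at again where its gap to the nearest of the others was too large a part of the group's range by Dixon's test at 95%. Of 78 such groups of named members 5 were. The WT group of Gm27325 and the KO group of Gm23493, at 0 throughout, could not be flagged. A group at 0 in all libraries but 1 is always flagged, as in KO for Gm44397 and Gm44311. The usual rate of about 1 in 20 holds for normally distributed values, so it is no measure for FPKM near 0. Gm44397 was at 8.45 FPKM in WT 4, against 2.72 to 3.27 FPKM in the other WT libraries, and at 1.15 FPKM in KO 2, against 0 in the other KO libraries. Mir1306 was at 1.71 FPKM in KO 4, against 0 to 0.221 FPKM in the other KO libraries. Gm44311 was at 4.49 FPKM in KO 2 and at 0 in the other KO libraries. Mir126a was at 4.35 FPKM in KO 3, against 0 to 0.506 FPKM.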

How the results depend on the processing

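Of 1124 changes of named genes under the alternatives, 19 changed sign, 52 lost and 11 gained a call, and 1042 kept both. Only the 4 called members and Tnfaip8l1 had a call to lose, so all 52 losses fall on them. The 1042 are mostly changes of genes with no call in the main fit. The numbers higher and lower over all genes were 46 and 40, and for members 3 and 1. With a pseudocount of 0.1 members gave 1 and 0, and of 5 also 1 and 0, with 27 genes higher and 27 lower. Without a filter 26 genes were lower, 32 higher, and members gave 0 and 0. With a mean of at least 5 FPKM, which keeps 81 members, 14 and 13 genes passed, and members gave 0 and 0. The 4 called members lie under that mean, so this setting did not test them. Equal sums over all genes, equal sums over protein-coding genes and quantile normalization each gave 1 member higher (Gm19658), and array weights 5. Equal sums over all genes moved the median change of all genes to -0.12. Whether the replicate numbers pair the samples is not known. Same-numbered deviations correlated at 0.0964, -0.0668, 0.0151 and 0.2496, and differently numbered ones at -0.1834 to 0.1289. WT 4 with KO 4 was thus the highest pair, and these correlations cannot decide whether samples were paired. With the replicate number as a block 16 genes were higher and 8 lower, members gave 0 and 0, and Tnfaip8l1 missed the threshold (adjusted p 0.0756 by limma). Leaving out 1 library gave 20 to 90 genes higher and 14 to 44 lower, and 0 to 3 members higher and 0 to 1 lower. Without WT 1 only Mir1893 was called among members (adjusted p 0.0468 by limma). Without WT 4 and KO 2 together 71 genes were higher. Why these counts moved was not tested.

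Signs turned at small values. Under quantile normalization AL626808.1 changed by -0.09 and Gnb2 by 0.04. Gnb2 changed by 0.01 with median ratio scaling and 0.03 with array weights. Leaving out 1 library gave AL626808.1 -0.04 to 0.31, Mir6236 -0.15 to 0.05, Mir21a -0.80 to 0.25, Mir126a -0.75 to 0.06, Gnb2 -0.13 to 0.09 and Tulp4 -0.49 to 0.12. Without WT 4 and KO 2 together Mir6236 changed by 0.02, Mir21a by 0.20 and Gnb2 by 0.15. Depth limits most members: 115 of 215 have a mean worth under 5 reads per library.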
